A study of Mus musculus with 9 samples.

Results

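A set of 10 genes known as transcriptional readouts of the ERK kinases were followed across mouse embryonic stem cells leaving self-renewal. They are the MAP kinase phosphatases Dusp4, Dusp5 and Dusp6, the Sprouty genes Spry1, Spry2 and Spry4, the Spred genes Spred1 and Spred2, and the ETS transcription factors Etv4 and Etv5. The members were chosen by name: transcripts were assigned to genes by their Ensembl transcript identifier in GENCODE M21, and the 10 symbols were kept out of 35896 genes with an assigned transcript. All 10 were among the 14648 genes that passed the filter on low counts. The rule itself used symbols and no measured value, but the members were proposed with earlier results of these data known.

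ERK is the last kinase of the cascade that runs from receptor tyrosine kinases through RAS, RAF and MEK, and in mouse embryonic stem cells FGF receptors are its main input. Active ERK induces genes that act back on the cascade: DUSP proteins remove the activating phosphates from MAP kinases, Sprouty proteins dampen signalling downstream of the receptor, and Spred proteins bind the RAS regulator neurofibromin and restrain RAF activation. Etv4 and Etv5 encode PEA3-family transcription factors commonly used as targets of FGF signalling. Blocking MEK holds mouse embryonic stem cells in naive self-renewal, and ERK activity accompanies their exit from it.

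The cells were E14, an established mouse embryonic stem cell line, grown with serum on gelatin, and no genotype was altered. The first group was kept with LIF, a cytokine of self-renewal, and 2 inhibitors: PD0325901 against MEK at 1 µM and CHIR99021 against glycogen synthase kinase 3β at 1 µM (+LIF2i). The second group was grown for 72 h after LIF and both inhibitors were removed (-LIF2i), so a difference between these groups cannot be assigned to MEK inhibition alone. The third group went through the same 72 h with CK666, an inhibitor of the Arp2/3 complex that nucleates branched actin, at 80 µM (CK666 -LIF2i). CK666 was dissolved in DMSO, and whether the controls received DMSO is not given in the sources used here. Each group had 3 RNA libraries, which the design text calls paired biological replicates and the titles number 1 to 3. P-values measure the spread between these samples of 1 cell line. The study's title places the Arp2/3 complex in differentiation and in the timing of formative pluripotency.

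Libraries held 16894327 to 22550952 estimated counts. The replicate 1 libraries stood apart from the others: they had 15690 to 17605 genes above 0, against 18166 to 18749 in replicates 2 and 3, and the second principal component (23.3% of the variance) separated them. Every test was therefore also run without replicate 1. Of 5 naive pluripotency markers, all 5 fell after removal of LIF2i. Their summed level was 2597 to 4530 CPM (reads scaled to library size, with TMM factors) with LIF2i, 233 to 319 without it and 332 to 516 with CK666. All 4 formative markers rose, from a summed 81.8 to 109 CPM with LIF2i to 952 to 2519 without it, with 544 to 1780 in CK666. The 2 general pluripotency markers summed to 1029 CPM or more in every library, and 1 of them, Sox2, fell after removal of LIF2i (log2 fold change -1.84, SE 0.26). Markers of other cells were low: the summed level in any library reached 18.4 CPM for 5 primitive endoderm markers, 16.5 for 4 mesoderm markers, 52.4 for 3 neural markers and 30.5 for 4 fibroblast or feeder markers. Fibroblast markers moved with withdrawal (5.89 to 9.39 CPM with LIF2i, 28.4 to 30.5 without, 16.0 to 24.4 with CK666; 3 of 4 rose), and so did 1 mesoderm marker, Mixl1, which rose, and 1 neural marker, Sox1, which fell. Of 18 alternatives, Thy1 was called in 18, Col1a2 in 16, Mixl1 in 14, Sox1 in 10 and Col1a1 in 4. No marker was at 0 in all libraries, and the part of these cells in the results was not tested.

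Removal of LIF2i for 72 h was accompanied by higher RNA of most of the feedback genes. Of the 10 genes, 6 rose (Dusp4, Dusp5, Dusp6, Spry1, Spry4 and Spred1), none fell and 4 did not pass the test (Spry2, Spred2, Etv4 and Etv5). The test was edgeR's quasi-likelihood test with the replicate number as a block and Benjamini-Hochberg adjustment over all 14648 genes, at 0.05. Calls in this comparison were common, at 40.7% of all tested genes, with 21.1% called higher and 19.7% lower. The median log2 fold change of the 10 genes was 1.60, against 0.01 over all tested genes. Without replicate 1 the same 6 genes were called, when 44.6% of all tested genes were. In 8 of the 10 genes the CPM values of the -LIF2i and +LIF2i libraries did not overlap, always with the -LIF2i libraries higher. Over all tested genes, 40.7% did not overlap in CPM in either direction, and 21.5% were higher. By the deposited length-corrected level (TPM), Spred1, Etv4 and Etv5 of these 8 did overlap. In bulk RNA, fewer cells expressing a gene and less RNA per cell cannot be told apart.

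**Figure D1:**
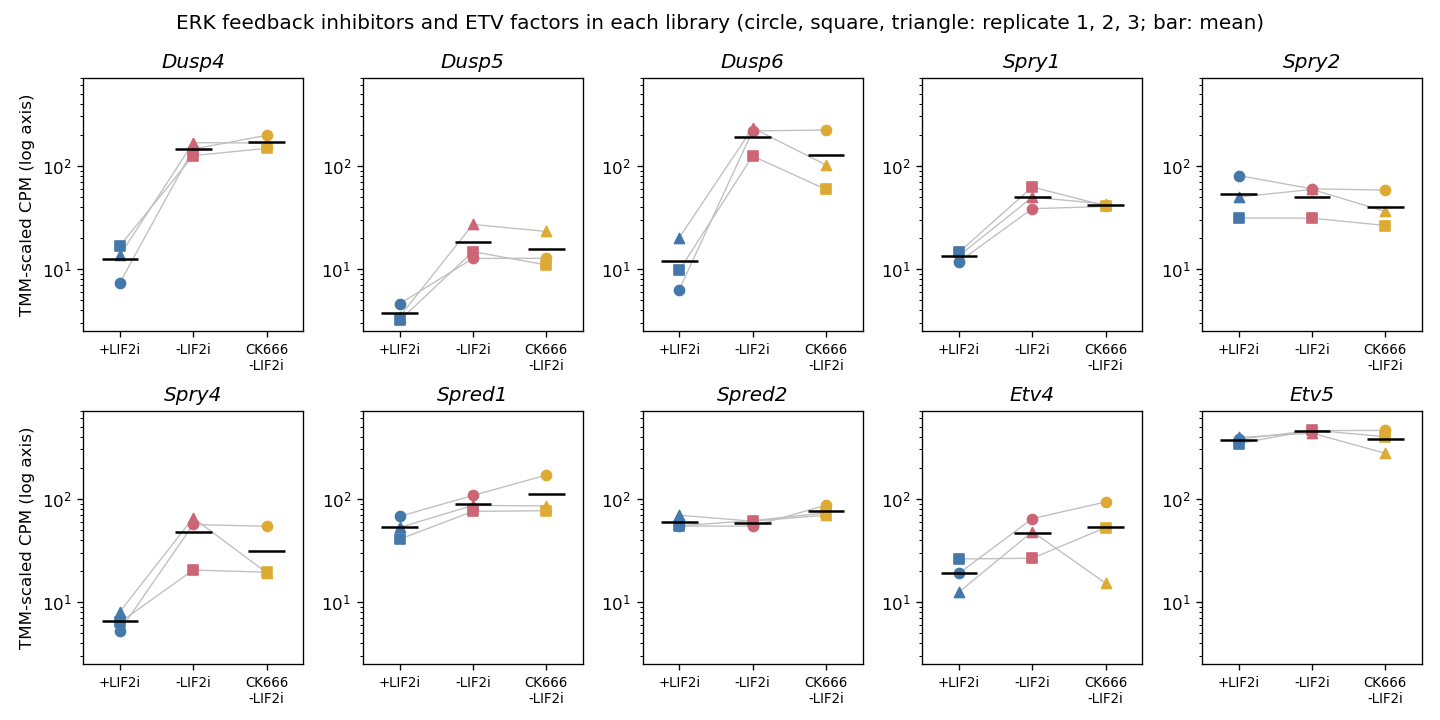
TMM-scaled CPM (log axis) of each gene in all 9 libraries, 1 panel per gene, with the groups +LIF2i, -LIF2i and CK666 -LIF2i on the x axis, a symbol for each replicate number joined by grey lines and a bar for the mean. Dusp4, Dusp5, Dusp6, Spry1, Spry4 and Spred1 lie higher in every -LIF2i and CK666 library than in any +LIF2i library. Spry2 overlaps across all 3 groups.

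Dusp6 and Dusp4 had the largest fold changes of the 10. Dusp6, a cytoplasmic phosphatase selective for ERK (chr10:99263231-99267489, plus strand, GRCm38), was at 6.34, 9.72 and 20.2 CPM in +LIF2i replicates 1, 2 and 3. It was at 217, 124 and 232 CPM in the -LIF2i replicates. The lowest withdrawn library was above the highest self-renewing one, and Dusp6 RNA rose 15.5-fold (log2 fold change 3.95, SE 0.50, edgeR quasi-likelihood test with Benjamini-Hochberg adjustment, adjusted p = 0.00073, higher in 3 of 3 pairs). Its call was lost without the replicate 2 libraries (adjusted p = 0.053, the highest of 18 alternatives, the lowest being 1.2e-10). Dusp4, a nuclear phosphatase of MAP kinases (chr8:34807297-34819894, plus strand), was at 7.37, 16.8 and 13.6 CPM with LIF2i. Without LIF2i its level was 145, 125 and 167 CPM. These groups were far apart, and Dusp4 rose 11.7-fold (log2 fold change 3.55, SE 0.28, edgeR adjusted p = 2.9e-05, 3 of 3 pairs).

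Dusp5, a nuclear phosphatase specific for ERK (chr19:53529109-53542431, plus strand), was the least abundant of the phosphatases. It was at 4.62, 3.19 and 3.46 CPM with LIF2i and at 12.7, 14.8 and 27.1 CPM without. All withdrawn libraries were above all self-renewing ones, and Dusp5 rose 4.53-fold (log2 fold change 2.18, SE 0.29, edgeR adjusted p = 0.00039, 3 of 3 pairs). An antisense gene, AC137853.2, shares 22.1% of the exonic bases of Dusp5. The labels do not state whether strand was kept, so reads of these bases may be split between both genes.

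Set by length as TPM, the deposited length-corrected level, the summed level of the 3 phosphatases was 12.5, 14.6 and 21.3 in the +LIF2i libraries. It was 237, 146 and 243 in the -LIF2i libraries. Dusp4 and Dusp6 made up nearly all of that higher sum, while the share of Dusp5 went from 27.6%, 11.6% and 9.31% to 3.82%, 5.94% and 6.62%.

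The promoter of Dusp5 was searched for motifs together with those of the other members that had a window. RefSeq promoter windows (GRCm38.p6, 250 bases before to 50 bases after a start) were found for 7 of the 10 genes, in 8 windows. No window was found for Dusp4, Spry4 and Etv4, so their promoters were not searched. The CArG box, the recognition motif of serum response factor, was searched by name on both strands and occurred in 1.63% of 32851 RefSeq windows. Of the 7 genes searched, Dusp5 held it, with 2 adjacent copies 82 to 73 and 72 to 63 bases before the start. This RefSeq start, at 53529145, lies inside the GENCODE gene span given for Dusp5, which begins at 53529109. The stretches from 110 to 41 bases before the start are given 5′ to 3′ on the gene's strand for Dusp5 and, for comparison, Dusp6 and Spry2, with the CArG boxes in capitals.
Dusp5, chr19:53529035-53529104, plus strand: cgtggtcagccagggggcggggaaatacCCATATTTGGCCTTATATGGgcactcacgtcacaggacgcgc
Dusp6, chr10:99263121-99263190, plus strand: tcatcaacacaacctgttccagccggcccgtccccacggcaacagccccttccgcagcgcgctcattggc
Spry2, chr14:105896860-105896929, minus strand: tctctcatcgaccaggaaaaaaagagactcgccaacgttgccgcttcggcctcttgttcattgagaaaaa
The ETS core CCGGAA, searched on both strands, was in the Spry2 window, after the start, and in 14.9% of all windows. The cyclic AMP response element TGACGTCA, the AP-1 motif TGANTCA and the EGR motif GCGGGGGCG were in none of the 8 member windows and in 1.79%, 7.81% and 2.91% of all windows. A match describes the letters of the window and was not tied to the RNA values.

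The Sprouty genes went different ways. Spry4 (chr18:38586247-38601415, minus strand) was at 5.31, 6.38 and 8.08 CPM with LIF2i. Without LIF2i it was at 56.4, 20.4 and 65.4 CPM. Replicate 2 was the low one of the withdrawn group but still above every self-renewing library, and Spry4 rose 6.48-fold (log2 fold change 2.70, SE 0.44, edgeR adjusted p = 0.0017, 3 of 3 pairs). Spry1 (chr3:37639947-37644598, plus strand) was at 11.8, 14.6 and 13.5 CPM with LIF2i and at 38.5, 62.3 and 49.7 CPM without. The groups did not overlap, and Spry1 rose 3.74-fold (log2 fold change 1.90, SE 0.16, edgeR adjusted p = 2.9e-05, 3 of 3 pairs). Gm42922 on the other strand shares 24.4% of Spry1's exonic bases.

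Spry2 (chr14:105891947-105896819, minus strand) did not follow them. It was at 80.5, 31.3 and 49.8 CPM with LIF2i and at 59.8, 31.1 and 59.1 CPM without. The groups overlapped and the pairs went both ways (log2 ratios -0.43, -0.01 and 0.25). The fit gave -0.06 on the log2 scale, SE 0.16 (adjusted p = 0.80 by edgeR).

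In TPM, the makeup of the Sprouty RNA shifted accordingly. Spry2 held 87.1%, 68.0% and 77.5% of the summed Spry1, Spry2 and Spry4 TPM in the +LIF2i libraries. It held 52.3%, 34.4% and 46.6% in the -LIF2i libraries and 51.2%, 38.7% and 45.7% in the CK666 libraries. Every withdrawn library, with or without CK666, was below every self-renewing one. Spry1 held 10.6%, 26.3% and 17.4% with LIF2i and 27.8%, 56.5% and 32.3% without.

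Spry1 also differed in which of its transcripts carried the RNA. Spry1-201 and Spry1-203 have overlapping first exons, of 148 bases (37639958 to 37640105 on chromosome 3) and 118 bases (37639947 to 37640064), which end at different splice donors and join the same second exon at 37640520. The junctions are shown because they differ between the transcripts, with the last 12 bases of exon 1 in capitals and the first 12 of exon 2 in lower case.
Spry1-201: TGGCAAGATCAGccggcgtggcga
Spry1-203: GCTCTGCACTAGccggcgtggcga
Spry1-201 held 19.2%, 11.0% and 32.8% of Spry1 TPM with LIF2i. It held 55.0%, 45.9% and 65.4% without LIF2i and 35.2%, 17.6% and 35.0% with CK666. The -LIF2i shares lay above those of both other groups, which overlapped each other. In level, Spry1-201 was at 1.71, 0.857 and 2.54 TPM with LIF2i, 15.2, 16.7 and 19.2 TPM without, and 9.62, 4.15 and 8.94 TPM with CK666. Spry1-203 was at 7.19, 6.70 and 5.07 TPM, then 12.4, 17.8 and 9.19 TPM, and 17.0, 18.2 and 14.3 TPM with CK666. The lower Spry1-201 level with CK666 was thus not matched by Spry1-203. These transcripts share most of their sequence, so their estimates are less certain than gene sums, and they were not tested.

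**Figure D2:**
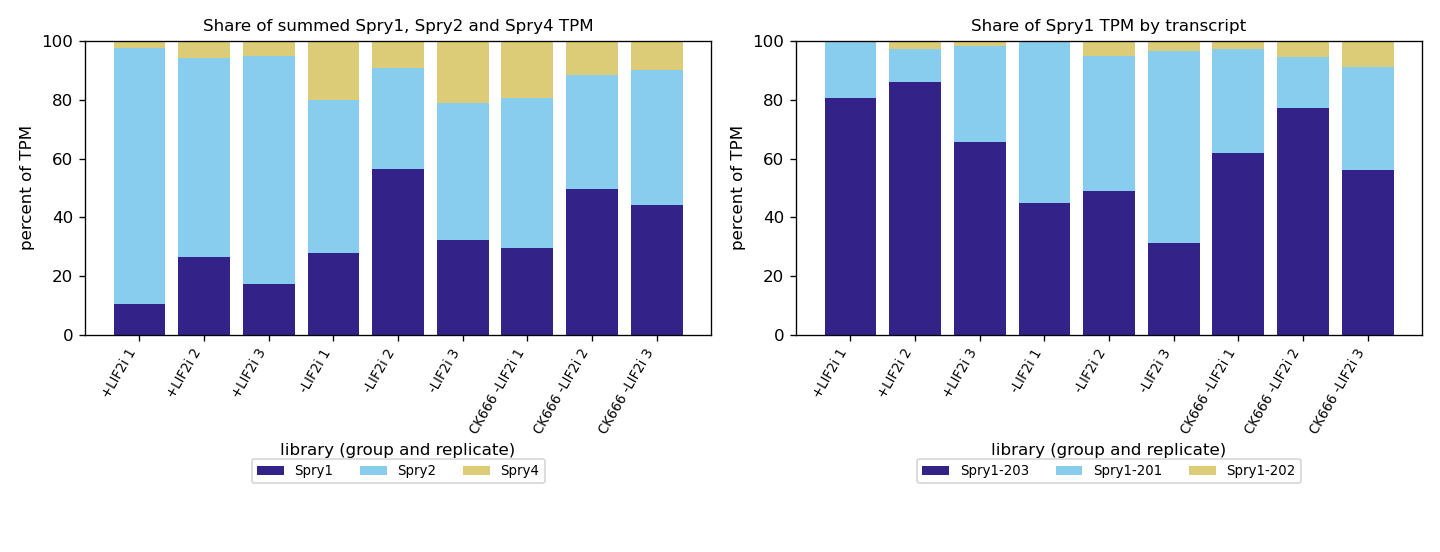
Stacked bars for each of the 9 libraries (x axis) giving percent of TPM: left, the shares of Spry1, Spry2 and Spry4 in their sum, and right, the shares of 3 Spry1 transcripts. Spry2 holds 68.0% or more in the +LIF2i libraries and 52.3% or less in all others, and Spry1-201 holds 45.9% or more in the -LIF2i libraries and 35.2% or less elsewhere.

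Of Spred1 and Spred2, Spred1 was called. Spred1 (chr2:117121374-117182279, plus strand) was at 67.5, 40.7 and 52.8 CPM with LIF2i and at 108, 75.5 and 86.2 CPM without. In CPM the withdrawn libraries were all above the self-renewing ones, and Spred1 rose in 3 of 3 pairs (log2 fold change 0.76, SE 0.15, adjusted p = 0.0036 by edgeR). In TPM the groups overlapped (20.3, 9.00 and 12.1 with LIF2i, 29.6, 17.2 and 20.0 without). Without the replicate block the edgeR adjusted p was 0.12, the highest of 18 alternatives (lowest 5.5e-05). Spred2 (chr11:19924375-20024026, plus strand) was at 54.4, 54.8 and 69.3 CPM with LIF2i and at 54.4, 61.4 and 60.8 CPM without. Its groups lay on top of each other (log2 fold change -0.01, SE 0.15, edgeR adjusted p = 0.96). A difference between the Spred1 and Spred2 responses was not tested.

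Etv4 and Etv5 did not pass the test. Etv5 (chr16:22381309-22439719, minus strand) was already the most abundant of the 10 with LIF2i, at 378, 341 and 392 CPM. It was at 456, 462 and 431 CPM without LIF2i. In CPM the groups did not overlap and all 3 pairs were higher, but the difference was small (log2 fold change 0.28, SE 0.16, edgeR adjusted p = 0.20). In TPM they overlapped, with 169 in +LIF2i replicate 1 and 155 in -LIF2i replicate 3. Etv4 (chr11:101769742-101785371, minus strand) was at 19.0, 26.2 and 12.5 CPM with LIF2i and at 64.3, 26.6 and 48.1 CPM without. Its pairs were uneven, with log2 ratios of 1.76, 0.02 and 1.94. The fit gave 1.30 on the log2 scale, SE 0.51 (adjusted p = 0.078 by edgeR), and 4 of 18 alternatives called it, with adjusted p from 0.030 to 0.35.

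Levels between genes were compared in TPM, which divides by length. With LIF2i, Etv5 stood first (mean 138 TPM), above Spry2 (42.6), Spred2 (25.4), Etv4 (17.7) and Spred1 (13.8), whose neighbours overlapped. A lower group of Spry1 (8.14), Dusp6 (7.14) and Dusp4 (6.61) followed, and Dusp5 (2.38) and Spry4 (1.97) were last. Without LIF2i, Etv5 was still first (173 TPM), but Dusp6 (115) and Dusp4 (82.1) came next, overlapping each other and above the remaining 7. Spry4 (14.9) and Dusp5 (11.3) remained at the bottom, overlapping each other.

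With CK666, all 10 genes failed the test against the -LIF2i controls. By edgeR's quasi-likelihood test the count was 0 of 10 with adjusted p from 0.19 to 0.99, and DESeq2 also called 0. Of all tested genes, 2.05% were called, 1.15% higher and 0.894% lower. That background of 300 genes moved with single replicates and libraries: it was 1746 without replicate 1, 8 without replicate 2 and 0 without replicate 3. With 1 library left out it was 401, 2 and 27 without CK666 replicates 1, 2 and 3, and 151, 4 and 3 without -LIF2i replicates 1, 2 and 3. Without +LIF2i replicates 1, 2 and 3 it was 1643, 265 and 115. At an unadjusted p under 0.05 there was 1 of 10, Spred2, against 19.7% of all tested genes. The median log2 fold change was -0.24, against 0.02 over all tested genes, and 7 estimates were negative and 3 positive. The comparison used the same -LIF2i libraries as the withdrawal comparison, so the values of both are not independent of each other. Without replicate 1, Dusp6 was called, when 11.9% of all tested genes were.

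**Figure D3:**
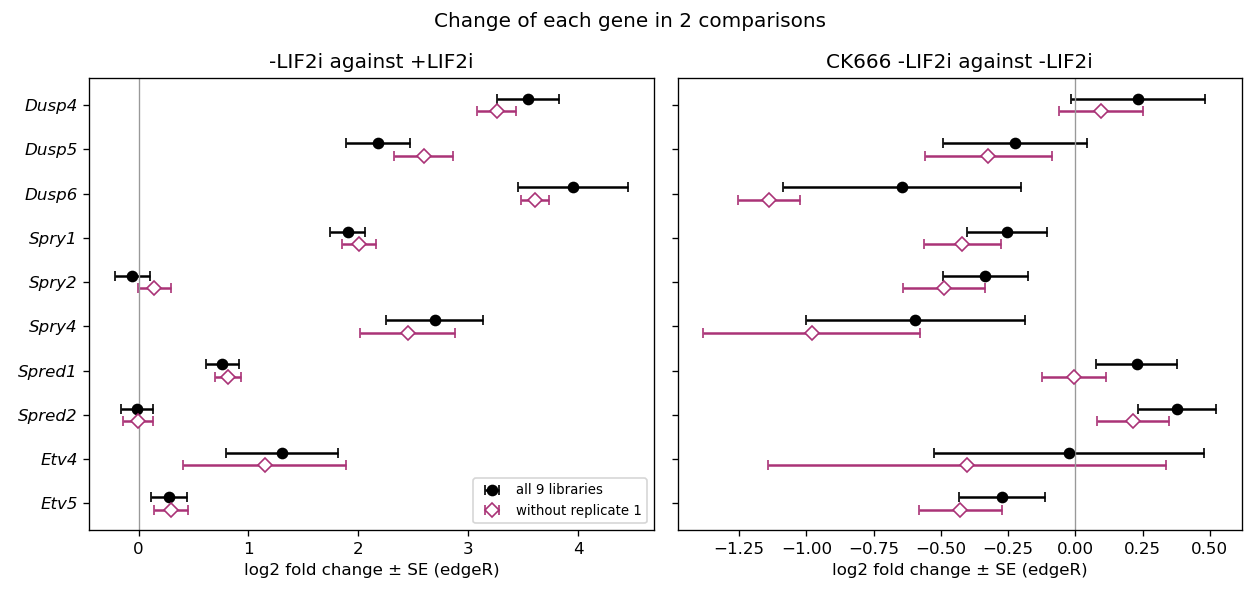
Log2 fold change of each gene with its SE from edgeR, for -LIF2i against +LIF2i (left) and CK666 -LIF2i against -LIF2i (right, on a narrower scale), with filled circles for all 9 libraries and open diamonds for the fit without replicate 1. Estimates reach 3.95 on the left, while on the right they run from -0.65 to 0.38 with all libraries and Dusp6 moves to -1.14 without replicate 1.

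Among the phosphatases, Dusp6 was at 222, 59.1 and 102 CPM with CK666, beside 217, 124 and 232 CPM in the matching controls. Replicate 1 was level with its control, and replicates 2 and 3 were lower (log2 ratios 0.03, -1.07 and -1.19). The fit gave -0.65 on the log2 scale, SE 0.44 (adjusted p = 0.47 by edgeR). Without replicate 1 it was -1.14 (SE 0.11, edgeR adjusted p = 0.0010), and the adjusted p over all 18 alternatives ran from 0.0010 to 0.93. Dusp4 was at 197, 147 and 166 CPM with CK666, overlapping its controls (log2 fold change 0.23, SE 0.25, edgeR adjusted p = 0.66). Dusp5 was at 12.7, 11.0 and 23.2 CPM, within or just below the range of its controls (log2 fold change -0.22, SE 0.27, edgeR adjusted p = 0.70). Dusp4 thus made up 46.0%, 66.8% and 55.7% of the summed TPM of Dusp4, Dusp5 and Dusp6 with CK666. In the controls it made up 38.9%, 44.9% and 36.5%. Those shares did not overlap, but the closest were 46.0% and 44.9%, and the difference was not tested.

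Spry4 was at 54.2, 19.5 and 19.3 CPM with CK666. Its log2 ratios to the controls were -0.06, -0.07 and -1.76, so nearly all of the difference lay in replicate 3 (log2 fold change -0.59, SE 0.41, edgeR adjusted p = 0.47). Spry2 was at 58.2, 26.4 and 36.1 CPM, below the control in 3 of 3 pairs but by only 0.04 on the log2 scale in replicate 1 (log2 fold change -0.34, SE 0.16, edgeR adjusted p = 0.28). Spry1 was at 40.4, 41.0 and 42.7 CPM, inside the range of its controls (log2 fold change -0.25, SE 0.15, edgeR adjusted p = 0.39).

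Spred2 was the 1 gene of 10 whose CK666 libraries did not overlap the controls, against 16.5% of all tested genes (8.79% higher and 7.69% lower). It was at 86.5, 73.1 and 69.5 CPM, beside 54.4, 61.4 and 60.8 CPM in the controls. All 3 pairs were higher, but the change failed the adjustment (log2 fold change 0.38, SE 0.15, unadjusted p = 0.029, edgeR adjusted p = 0.19). Spred1 was at 169, 76.7 and 85.3 CPM, clearly above its control in replicate 1 and level with it in the others (log2 ratios 0.65, 0.02 and -0.02). The fit gave 0.23 on the log2 scale, SE 0.15 (adjusted p = 0.44 by edgeR) with all libraries and -0.0049 without replicate 1.

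Etv5 was at 458, 398 and 275 CPM with CK666, level with its control in replicate 1 and lower in the others (log2 fold change -0.27, SE 0.16, edgeR adjusted p = 0.39). Etv4 was at 93.0, 52.7 and 15.2 CPM, with log2 ratios of 0.53, 0.99 and -1.66. No common direction was left (log2 fold change -0.02, SE 0.50, edgeR adjusted p = 0.99). In the CK666 group replicate 1 was the highest library for 8 of the 10 genes, against 3 of 10 in each of the other groups.

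**Figure D4:**
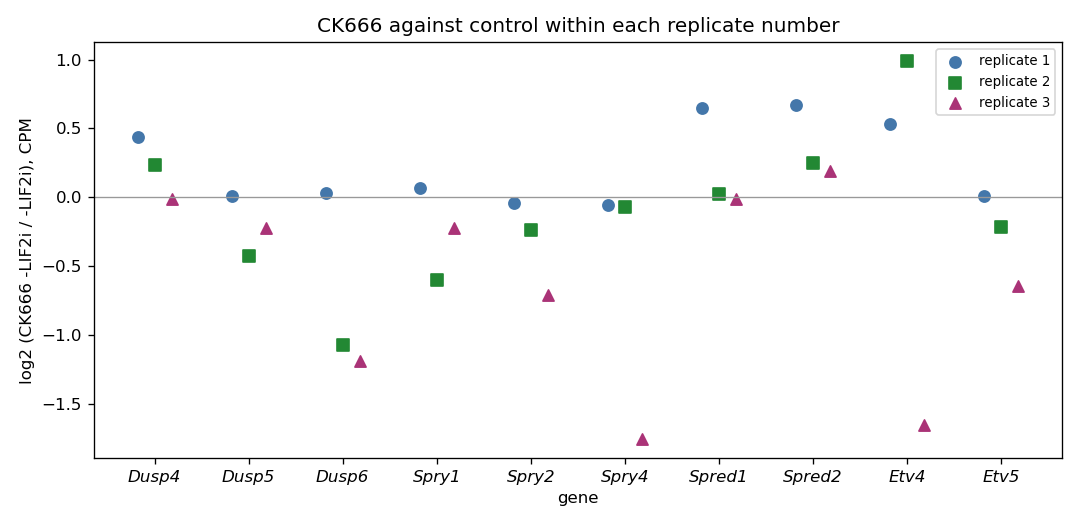
Log2 ratio of CPM, CK666 -LIF2i over -LIF2i, within each replicate number (y axis) for each gene (x axis), with a symbol per replicate. Spred2 is above 0 and Spry2 and Spry4 are below 0 in all 3 pairs, and Dusp6 lies at 0.03 in replicate 1 but at -1.07 and -1.19 in the others.

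Cells withdrawn with CK666 were also set against self-renewing cells. Of the 10 genes, 6 were higher by edgeR, against 19.8% of all tested genes called higher and 17.1% lower (36.9% in either direction), and they were the 6 that rose in the controls. In 7 of 10 the CPM values did not overlap, always with the CK666 libraries higher, against 37.3% of all tested genes in either direction and 20.5% higher. The 7 were the 6 called genes and Spred2, whose lowest CK666 library (69.5 CPM) was barely above the highest +LIF2i library (69.3 CPM). In TPM, Spred1 overlapped. The log2 fold changes were 3.78 for Dusp4 (SE 0.29), 3.31 for Dusp6 (SE 0.50), 2.10 for Spry4 (SE 0.44), 1.96 for Dusp5 (SE 0.29), 1.65 for Spry1 (SE 0.16) and 0.99 for Spred1 (SE 0.15). The edgeR adjusted p-values of these 6 lay between 2.9e-05 and 0.0064. Without replicate 1 the same 6 were called, against 41.5% of all tested genes, with smaller estimates for Dusp6 (2.47, SE 0.13) and Spry4 (1.47, SE 0.43). Without the replicate 2 libraries Dusp6 lost its call (edgeR adjusted p = 0.073, the highest of 18 alternatives, the lowest being 1.3e-07). Spry4 lost its call with no filter on low counts (edgeR adjusted p = 0.052, the highest of 18 alternatives, the lowest being 3.0e-07). The 4 that did not pass were Etv4 (log2 fold change 1.28, SE 0.51, called in 4 of 18 alternatives), Spry2 (-0.39, SE 0.16), Spred2 (0.37, SE 0.15) and Etv5 (0.01, SE 0.16). Each comparison shares libraries with the other 2. Among markers of other cells, Thy1, Col1a2, Mixl1 and Pdgfra were higher and Eomes lower with CK666 than in self-renewing cells, and their part in the result was not tested.

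Other genes of the pathway were read from lists chosen by function. Of 7 further MAP kinase phosphatases, 4 rose after removal of LIF2i and none fell (21.1% and 19.7% of all tested genes), with a median log2 fold change of 1.32. They were Dusp8 (2.38, SE 0.42), Dusp9 (1.45, SE 0.17), Dusp7 (1.15, SE 0.18) and Dusp2, which had only 1, 0 and 2 counts with LIF2i and 30, 30 and 57 without, so that no fold is given. Dusp9, a cytoplasmic phosphatase of ERK, was at 103, 59.6 and 39.7 CPM with LIF2i, 205, 171 and 139 CPM without, and 514, 372 and 202 CPM with CK666. It was thus higher again in each CK666 library than in its control, and its rise with CK666 was called (log2 fold change 0.99, SE 0.17, edgeR adjusted p = 0.030), unlike any of the 10. The call held in 9 of 18 alternatives, with adjusted p from 3.2e-05 to 0.47, and the estimate stayed between 0.78 and 1.22. A difference between Dusp9 and Dusp6 was not tested.

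Of 7 tested relatives and other feedback genes, 3 rose after removal of LIF2i, none fell and the median log2 fold change was 0.28, a share called close to the 40.7% of all tested genes. Those that rose were Spred3 (2.79, SE 0.32), the ETV factor Etv1 (2.16, SE 0.25) and Il17rd (1.52, SE 0.13), which encodes the receptor-bound FGF antagonist Sef. None of the 7 was called with CK666, where 2.05% of all tested genes were called and the median of the 7 was 0.05.

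Of 24 genes of the cascade itself, 9 rose and 5 fell after removal of LIF2i (21.1% and 19.7% of all tested genes), with a median log2 fold change of 0.03. The ligand Fgf4 fell (log2 fold change -2.11, SE 0.18), as did the MEK1 gene Map2k1 (-0.52, SE 0.11, called in 15 of 18 alternatives), while the MEK2 gene Map2k2 rose (0.59, SE 0.13, called in 17 of 18). The receptors Fgfr1 (0.78, SE 0.13) and Fgfr2 (2.36, SE 0.44) and the ERK1 gene Mapk3 (0.65, SE 0.13) rose. With CK666, 1 of the 24 rose and 2 fell (1.15% and 0.894% of all tested genes): Braf (0.57, SE 0.11), Map2k1 (-0.62, SE 0.11) and the ligand and formative marker Fgf5 (-3.16, SE 0.43). Fgf5 was at 43.4, 60.7 and 38.2 CPM without LIF2i and at 10.7, 2.55 and 4.41 CPM with CK666. All of its CK666 libraries were far below all controls. These CK666 calls held in 6, 8 and 10 of 18 alternatives for Braf, Map2k1 and Fgf5.

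Of 9 tested immediate early genes, which respond to ERK within minutes of a stimulus, 5 rose and 1 fell after removal of LIF2i (median log2 fold change 2.10), against 21.1% and 19.7% of all tested genes. Egr1, Jun, Myc and Srf were called in all 18 alternatives, Junb in 8 and the fall of Ier3 in 6. With CK666, none rose and 2 fell, Egr1 and Ier3 (median -1.28), against 1.15% and 0.894% of all tested genes. Egr1 was at 0.197, 0.209 and 0.486 CPM with LIF2i, at 6.90, 7.94 and 25.1 CPM without, and at 0.711, 2.04 and 1.51 CPM with CK666. The log2 fold change with CK666 was -3.07 for Egr1 (SE 0.42, edgeR adjusted p = 0.019) and -1.82 for Ier3 (SE 0.38, edgeR adjusted p = 0.048). Egr1 kept its call in 12 of 18 alternatives and Ier3 in 8, with the adjusted p reaching 0.31 and 0.44. The 10 members had estimates between -0.65 (Dusp6) and 0.38 (Spred2) in the same comparison, and a difference between these groups of genes was not tested.

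Of 4 further genes used in published transcript scores of MAP kinase activity, Ccnd1 (log2 fold change 1.04, SE 0.20) and Phlda1 (1.61, SE 0.46, called in 14 of 18 alternatives) rose after removal of LIF2i and Epha4 fell (-5.64, SE 0.24), where 21.1% of all tested genes rose and 19.7% fell. The fourth, Epha2, had a log2 fold change of -0.85 (SE 0.32) that did not pass, and it was lower with CK666 than in self-renewing cells (-2.08, SE 0.32, called in 18 of 18 alternatives). Epha4, an ephrin receptor, was at 249, 144 and 157 CPM with LIF2i and at 4.20, 3.37 and 3.29 CPM without. With CK666 it was at 16.7, 14.2 and 7.15 CPM, all above the controls (log2 fold change 1.77, SE 0.22, edgeR adjusted p = 0.014, called in 12 of 18 alternatives, highest adjusted p 0.27). After removal of LIF2i Epha4 thus moved opposite to the 6 called members.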

How the data were processed

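RNA from 9 cultures was sequenced as poly-A libraries. The authors deposited, per library, estimated counts and TPM per transcript in the format of kallisto, with effective lengths, per the file headers. The submitters' processing notes name FastQC, cutadapt 1.8.1, kallisto and sleuth and the builds mm10 and GRCh38. The transcript release is not given in the sources used here.

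Of 119414 transcripts, 116640 (97.7%) matched GENCODE M21 by identifier, and the rest, holding 0.895% to 1.08% of counts, were left out. The deposited estimated counts were summed per gene and rounded. The deposited TPM values were summed per gene without a test. In R 4.3.3, edgeR 4.0.16 (filterByExpr, TMM, robust quasi-likelihood fit of all 9 libraries with the replicate number as a block, Benjamini-Hochberg at 0.05) gave all log2 fold changes. The SE is the size of the log2 fold change over the square root of F. Same-numbered libraries had deviations from their group means that correlated in every pair (r 0.30 to 0.65, median 0.41), those of replicates 2 and 3 also correlated with each other (r 0.21 to 0.29), and the design text calls the replicates paired. No libraries of a group agreed within sampling noise. The test was also tested on simulated data. The depth of 16894327 to 22550952 counts put 57 or more counts behind each member in each library.

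The members and lists were chosen with earlier results of these data known. All 10 members are described, and listed genes are named when past the threshold or needed beside a member. Some listed genes are not reported here. Alternatives were DESeq2 1.42.0, DESeq2 size factors, no filter, effective length offsets, only the 2 groups compared, no block, and each replicate number or library left out. Promoters are from RefSeq.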

Additional observations from a re-analysis of the deposited data

How the results depend on the processing

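Counts over all genes moved with the replicate block: without it 3509 genes were called after removal of LIF2i, 0 with CK666 (1251 at an unadjusted p under 0.05) and 2966 between CK666 and self-renewing cells. With the block they were 5967, 300 and 5408. The CK666 count was 1136 with DESeq2, 565 with no filter, 147 with effective length offsets and 1376 with only the 2 groups compared. Leaving out replicates or libraries gave 3105 to 6533 genes for withdrawal, 0 to 1746 for CK666 (1746 without replicate 1, 8 without replicate 2, 0 without replicate 3) and 2419 to 6081 for CK666 against self-renewal. The members called were 5 to 7, 0 to 1 and 5 to 7 in those fits. Without the replicate block Spred1 was the withdrawal call lost, and 5 of 6 held. Of the 6 calls, 4 held in all 18 alternatives in withdrawal and 4 in CK666 against self-renewal.

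Signs turned for these estimates. Spred2 after withdrawal was 0.0039 with DESeq2 size factors, 0.0039 with DESeq2 and 0.0072 with no filter. Etv4 with CK666 was 0.21 without the replicate block and 0.022 with length offsets. Etv5 between CK666 and self-renewal was -0.00098 with only 2 groups. With replicates or libraries left out, log2 fold changes ran from -0.24 to 0.14 for Spry2 and -0.10 to 0.13 for Spred2 after withdrawal. With CK666 they ran from -0.073 to 0.38 for Dusp4, -0.0049 to 0.36 for Spred1 and -0.54 to 0.72 for Etv4. For Etv5 between CK666 and self-renewal they ran from -0.14 to 0.25. The cause was not tested.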
